A study of Mus musculus with 8 samples.

Results

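Keratinocytes hold on to the basement membrane, and crawl over wound matrix, through integrins, paired alpha and beta chains in the cell membrane. The 10 genes described here are 8 of these chains (Itga2, Itga3, Itga5, Itga6, Itgav, Itgb1, Itgb4 and Itgb6) and 2 matrix ligands, Fn1 for fibronectin and Tnc for tenascin-C. They were taken by gene symbol from the 22180 genes measured on the arrays, and all 10 were measured. Each is represented by a probe set that names 1 gene only, the one with the highest mean where there were several.

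Total RNA of epidermis taken on postnatal day 0 from C57BL/6J mice was hybridised to 8 expression arrays. In 4 of them, labelled K320E-TwinkleEpi and called K320E below, a mutant form of Twinkle, the helicase of mitochondrial DNA, was expressed under the K14 promoter. This promoter is active in basal keratinocytes, and which other cells in the tissue expressed the mutant form was not tested. The 4 controls carry the label R26-K320E-TwinkleloxP/+, which names the mutant transgene too, so the comparison is not one of carriers with non-carriers. That label also names R26 and loxP, and whether the K14 promoter drove the mutant form directly was not tested. No label says whether the arrays stand for separate animals or litters. The p-values therefore reflect the scatter among these arrays, part of which may be technical. Levels of sex-linked transcripts, given below, differed within each group, so the arrays of a group did not all come from the same RNA. How many animals they stand for was not tested.

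In resting epidermis the alpha6 beta4 integrin, made of Itga6 and Itgb4, anchors basal cells in hemidesmosomes by binding laminin-332. The beta1 chain pairs with alpha2 to bind collagen, with alpha3 to bind laminin, and with alpha5 to bind fibronectin. Keratinocytes at a wound edge are known to raise alpha5 beta1 and alphav beta6, which hold them to the fibronectin and tenascin-C of the provisional matrix, and alphav beta6 also activates latent TGF-beta.

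Values are log2 intensities, so a difference of 1 is a doubling of signal. Levels of different probe sets cannot be set against each other, and only differences between the groups are compared. Twnk, the gene of Twinkle, was higher in every K320E array (9.05 ± 0.18, SD, n = 4) than in every control (6.73 ± 0.18, SD, n = 4). Keratinocyte markers were high in both groups, with the suprabasal keratin Krt10 at 12.91 in each. Of 4 basal markers 0 were called and 3 had an unadjusted p under 0.05 (against 14.8% of all genes), with changes in both directions. Krt14 lay above all controls in every K320E array (12.58 against 12.30, limma adjusted p = 0.141), and Krt15 lay below them (11.88 against 12.19, adjusted p = 0.117). The integrin chains are largely basal-cell genes, and the part of these basal differences in their values was not tested. Sex-linked transcripts differed among the arrays. K320E replicate 3 had Xist, the RNA of the inactive X, low (6.84) and 3 Y-linked genes raised (mean 8.64), a male pattern. The other K320E arrays and control replicates 1 and 4 had the reverse (Xist 12.07 to 12.27, Y-linked means 4.75 to 4.82). The part of sex in the member values was not tested. In 2 control arrays the sex-linked transcripts did not match 1 sex. Control replicate 2 had both Xist (9.27) and the Y-linked genes (mean 9.05) at raised levels, while control replicate 3 had both low (6.17 and 4.75). For the members, their classes and the called genes, values without these 2 arrays are given beside those with them.

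All 10 members had a positive change in K320E, where 49.8% of all genes did, and their median change was 0.36 log2 units against -0.00052 over all genes. The members were chosen with earlier results of these data known, so their counts and median carry no test over the list. Only Itga5 rose in the test over all genes (limma, Benjamini-Hochberg adjusted p under 0.05), and 0 fell, where 0.685% of all genes were called higher and 0.194% lower. At an unadjusted p under 0.05 there were 9 of the 10, against 14.8% of all genes. In 7 of the 10 every K320E array lay above every control array, where 5.5% of all genes did so. The separation was wide in Itgb4, Itga5, Itgb1 and Tnc, whose lowest K320E array exceeded the highest control by 0.39, 0.28, 0.13 and 0.13. It was slight in Itga6 (0.020), Itgb6 (0.0030) and Itgav (0.0017). After quantile normalisation or median centring 5 of the 10 were apart, where 4.9% and 4.92% of all genes were. Itga6 overlapped or tied under both, Itgb6 overlapped after the former and Itgav after the latter. Without control replicates 2 and 3, 8 of the 10 lay apart, where 12.9% of all genes did.

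**Figure D1:**
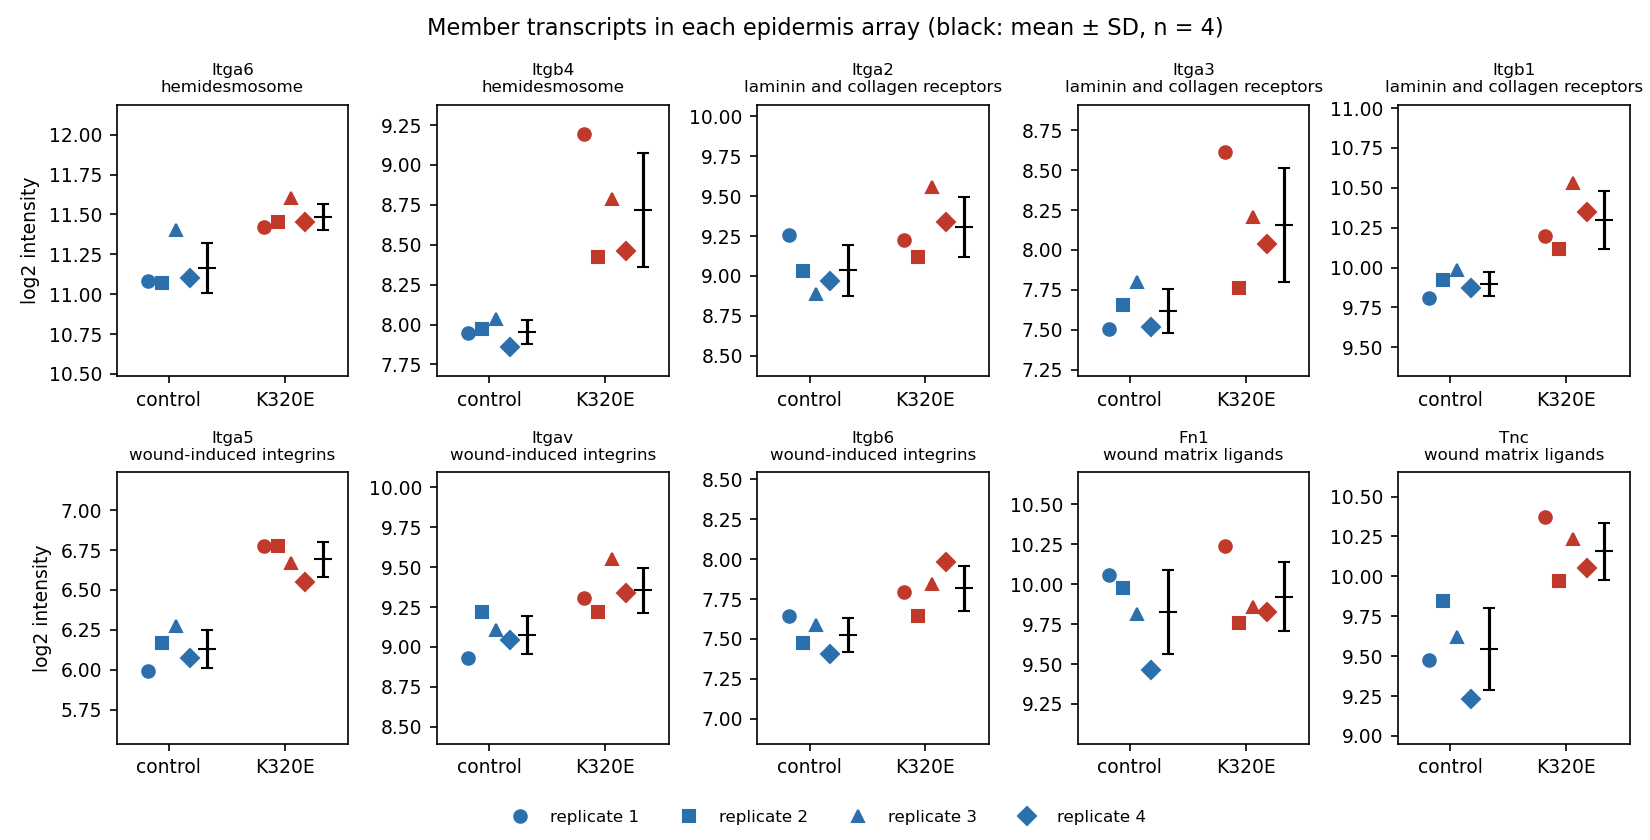
Log2 intensity of each of the 10 members in the 4 control (blue) and 4 K320E (red) arrays, 1 panel per gene over the same span of log2 units. Symbols mark replicate numbers, and the black bar is the group mean with its SD. Itgb4 and Itga5 show the widest gaps between the groups (0.39 and 0.28), and Fn1 overlaps.

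The promoter sequences of the called receptor chain, of its partner and of the ligand with the larger change are shown because all 3 separated the groups under every scaling. They are the 250 bases before the annotated start, 5′ to 3′ on the gene's strand, from RefSeq on GRCm38.p6. The windows lie at chr15:103366792-103367041 on the minus strand for Itga5, chr8:128685404-128685653 on the plus strand for Itgb1 and chr4:64047016-64047265 on the minus strand for Tnc. Capitals mark motif matches.
Itga5: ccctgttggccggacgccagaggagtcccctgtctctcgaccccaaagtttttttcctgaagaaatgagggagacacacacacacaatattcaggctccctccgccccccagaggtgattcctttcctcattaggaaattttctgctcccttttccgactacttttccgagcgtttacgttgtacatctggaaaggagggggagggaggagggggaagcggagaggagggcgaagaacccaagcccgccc
Itgb1: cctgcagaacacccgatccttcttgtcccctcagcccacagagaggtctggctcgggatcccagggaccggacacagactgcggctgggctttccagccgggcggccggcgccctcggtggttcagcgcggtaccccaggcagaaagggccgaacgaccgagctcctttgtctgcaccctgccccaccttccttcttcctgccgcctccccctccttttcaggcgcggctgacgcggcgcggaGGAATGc
Tnc: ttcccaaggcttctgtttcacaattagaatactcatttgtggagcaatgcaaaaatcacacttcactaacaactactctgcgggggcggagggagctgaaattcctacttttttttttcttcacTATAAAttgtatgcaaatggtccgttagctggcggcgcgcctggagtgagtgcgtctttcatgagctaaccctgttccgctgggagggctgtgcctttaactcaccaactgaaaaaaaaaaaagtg
Both strands were searched for AP-1 (TGANTCA), the composite site of ATF4 and CHOP (TGATGNAA), TEAD (GGAATG) and the TATA box (TATAAA). No 2 of the matches overlapped. Over 27025 mouse promoters of this length, the first listed start of each gene, they matched 6.87%, 3.53%, 12.6% and 13.0%. Of the 7 members with an entry, Itgb1 held 1 TEAD match and Tnc 1 TATA match. The windows of Itga5, Itga2, Itga3, Itgav and Itgb6 held none of the 4 letter strings. A match is a description of the letters and shows no binding. No promoter entry for Itga6, Itgb4 or Fn1 was found in the source used here.

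For both hemidesmosome chains the lowest K320E array lay above the highest control, and neither passed the test over all genes. Itgb4, the chain whose long cytoplasmic tail binds the keratin linker plectin, measured 9.20, 8.43, 8.79 and 8.46 in K320E replicates 1 to 4 and 7.95, 7.97, 8.03 and 7.86 in the controls. The controls lay close together while K320E replicate 1 stood highest. Its change was 0.77 (SE 0.15) or 1.70-fold, with a limma adjusted p of 0.064 that missed the threshold. With single arrays left out the adjusted p ran from 0.046 to 0.178, and it passed in 1 of the 8 fits, without K320E replicate 1 (change 0.61). The change without control replicates 2 and 3 was 0.82 (adjusted p = 0.150). A further probe set, shared by Itgb4 and B230344G16Rik and left out of the fit, ran from 7.04 to 7.80 in K320E and from 6.74 to 7.02 in controls.

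Itga6, its alpha partner, measured 11.42, 11.45, 11.60 and 11.45 in K320E and 11.08, 11.07, 11.40 and 11.10 in controls. Control replicate 3 stood apart from the other 3 controls and lay just below the lowest K320E array. The change was 0.32 (SE 0.085) or 1.25-fold, with a limma adjusted p of 0.134. With single arrays left out the adjusted p ran from 0.042 to 0.273. It passed in 1 of the 8 fits, without control replicate 3 (change 0.40), the control nearest to the K320E arrays. The change without control replicates 2 and 3 was 0.39 (adjusted p = 0.084). Within each array, log2 Itga6 minus log2 Itgb4 ran from 2.22 to 3.03 in K320E and from 3.10 to 3.37 in controls. The difference between the partners was thus smaller in every K320E array, with a mean shift of -0.45 that is described here without a test. K320E replicate 1 stood lowest at 2.22, and without it the shift was -0.27. Without control replicates 2 and 3 it was -0.43. These arrays were left out of this shift after the data were seen.

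Among the laminin and collagen receptors, the shared chain Itgb1 separated the groups, and its alpha partners Itga2 and Itga3 did not. Itgb1 was at 10.20, 10.12, 10.53 and 10.35 in K320E and at 9.81, 9.92, 9.98 and 9.87 in controls. Its change was 0.40 (SE 0.091, 1.32-fold, limma adjusted p = 0.091), and 0.46 without control replicates 2 and 3 (adjusted p = 0.154). Itga3, the alpha chain of the laminin-332 receptor alpha3 beta1, gave 8.62, 7.76, 8.21 and 8.04 in K320E against 7.50, 7.65, 7.80 and 7.52 in controls. K320E replicate 2 lay just below the highest control, and K320E replicate 1 was again the highest array. The change of Itga3 was 0.54 (SE 0.16, 1.45-fold, limma adjusted p = 0.173), and 0.38 without K320E replicate 1. Without control replicates 2 and 3 it was 0.64 (adjusted p = 0.245).

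Itga2, the collagen-binding chain, had values of 9.23, 9.12, 9.56 and 9.34 in K320E and 9.26, 9.03, 8.89 and 8.97 in controls. Control replicate 1 lay above 2 of the K320E arrays. Its change was 0.27 (SE 0.11, 1.21-fold, limma adjusted p = 0.287), the second smallest of the 10. It was 0.20 without control replicates 2 and 3 (adjusted p = 0.609).

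Itga5, the alpha chain of the fibronectin receptor, was the member that rose. Its log2 intensities were 6.78, 6.78, 6.67 and 6.55 in K320E replicates 1 to 4 and 6.00, 6.17, 6.27 and 6.07 in control replicates 1 to 4. The lowest K320E array lay 0.28 above the highest control. The means were 6.69 ± 0.11 and 6.13 ± 0.12 (SD, n = 4 each), a change of 0.56 (SE 0.079) or 1.48-fold, with a 95% interval of 0.39 to 0.74 and a limma adjusted p of 0.0166. Its p ranked 68th of the 22180 genes. Without control replicates 2 and 3 the change was 0.66 (adjusted p = 0.031). The call was lost without K320E replicate 3, where the change was 0.57 and the adjusted p 0.061, and kept without any other single array.

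Both chains of alphav beta6 had smaller differences, and neither passed the test. Itgav was at 9.31, 9.22, 9.55 and 9.34 in K320E and at 8.93, 9.22, 9.10 and 9.04 in controls, so that control replicate 2 reached the lowest K320E array. Its change was 0.28 (SE 0.087, 1.21-fold, limma adjusted p = 0.185), and 0.37 without control replicates 2 and 3 (adjusted p = 0.188). A second Itgav probe set, with a lower signal, had a change of 0.03 (SE 0.073, limma adjusted p = 0.917), and with the mean over both probe sets the Itgav change was 0.15. Itgb6, which is restricted to epithelia and pairs with alphav alone, was at 7.80, 7.64, 7.85 and 7.98 in K320E and at 7.64, 7.47, 7.59 and 7.40 in controls. The lowest K320E array and the highest control were level at 2 decimals. Its change was 0.29 (SE 0.084, 1.22-fold, limma adjusted p = 0.161), and also 0.29 without control replicates 2 and 3 (adjusted p = 0.322).

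The matrix ligands differed from each other. Tnc, an adhesion-modulating glycoprotein of wound matrix, measured 10.37, 9.97, 10.23 and 10.05 in K320E and 9.48, 9.84, 9.62 and 9.23 in controls. All 4 K320E arrays were above all controls, of which control replicate 2 was the highest. The change was 0.61 (SE 0.13, 1.53-fold, limma adjusted p = 0.081), and 0.80 without control replicates 2 and 3 (adjusted p = 0.051). With single arrays left out the adjusted p ran from 0.069 to 0.206.

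Fn1, the fibronectin gene, was at 10.24, 9.76, 9.86 and 9.83 in K320E and at 10.06, 9.98, 9.81 and 9.46 in controls. The groups overlapped through most of their range, with K320E replicate 1 the highest array and control replicate 4 the lowest. The change was 0.09 (SE 0.15), and its 95% interval of -0.23 to 0.42 leaves room for changes of either sign (limma adjusted p = 0.829). It turned to -0.011 without K320E replicate 1 and to -0.027 without control replicate 4, and was 0.16 without control replicates 2 and 3.

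**Figure D2:**
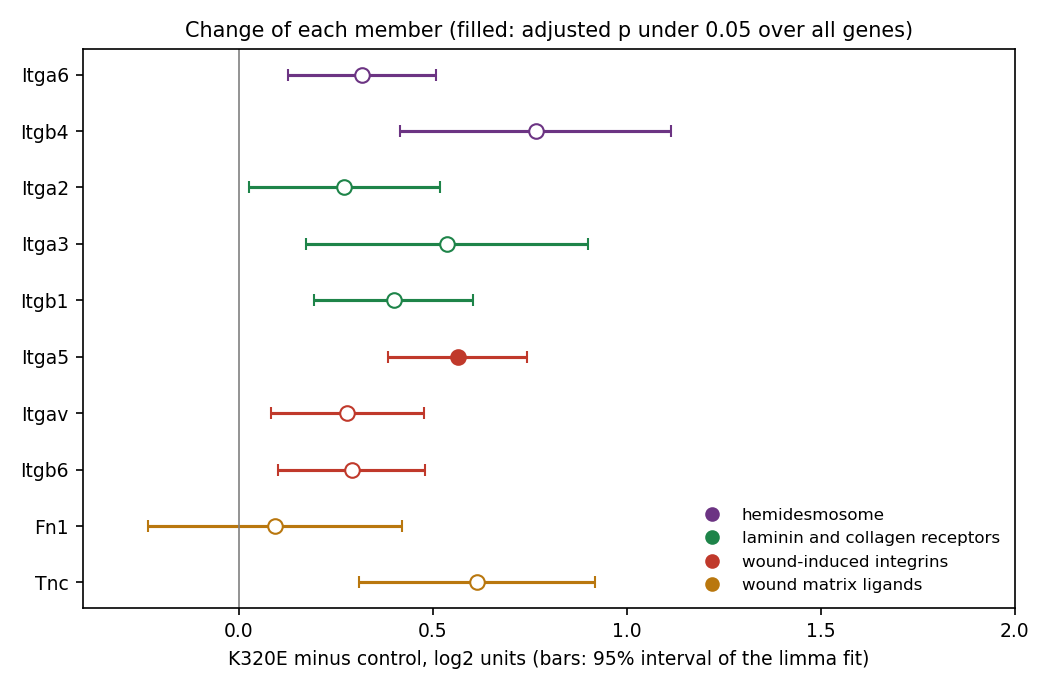
Change of each member, K320E minus control in log2 units, with the 95% interval of the limma fit over 4 arrays per group. Colours give the class, and the filled point (Itga5) passed the adjusted threshold over all genes. The intervals of 9 members lie above 0, and that of Fn1 spans it.

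Set side by side, the mean change was larger for the hemidesmosome chains than for the wound-induced integrins and ligands. It was 0.54 for Itga6 and Itgb4, 0.38 for Itga5, Itgav and Itgb6, and 0.35 for Fn1 and Tnc. For comparison, Itga2, Itga3 and Itgb1 had a mean change of 0.40. The hemidesmosome mean joined unlike changes, 0.77 for Itgb4 and 0.32 for Itga6, and Itga6 alone was below each other class mean. The ligand mean likewise joined 0.61 for Tnc and 0.09 for Fn1. The order of the class means thus leaned on single genes. Within each array the wound-induced integrin mean minus the hemidesmosome mean was -2.35, -2.06, -2.17 and -2.00 in K320E and -1.99, -1.90, -2.06 and -1.97 in controls. This difference shifted by -0.16 between the groups, which overlapped, with K320E replicate 1 the lowest array. The shift was -0.095 without that array. For the ligand mean minus the hemidesmosome mean the shift was -0.19, also with overlap, and -0.10 without control replicate 2. Without control replicates 2 and 3 these shifts were -0.16 and -0.12. The classes were chosen with results of these data known, so the shifts carry no test.

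The K320E arrays lay closest together in the wound-induced integrins, whose class mean ran from 7.88 to 8.02 in K320E and from 7.51 to 7.65 in controls. In the fibronectin receptor the change was 0.56 for Itga5 and 0.40 for Itgb1. Log2 Itga5 minus log2 Itgb1 ran from -3.86 to -3.34 in K320E and overlapped the controls (-3.82 to -3.71). For Itgav minus Itgb6 the K320E range of 1.36 to 1.71 lay inside that of the controls, 1.29 to 1.75.

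**Figure D3:**
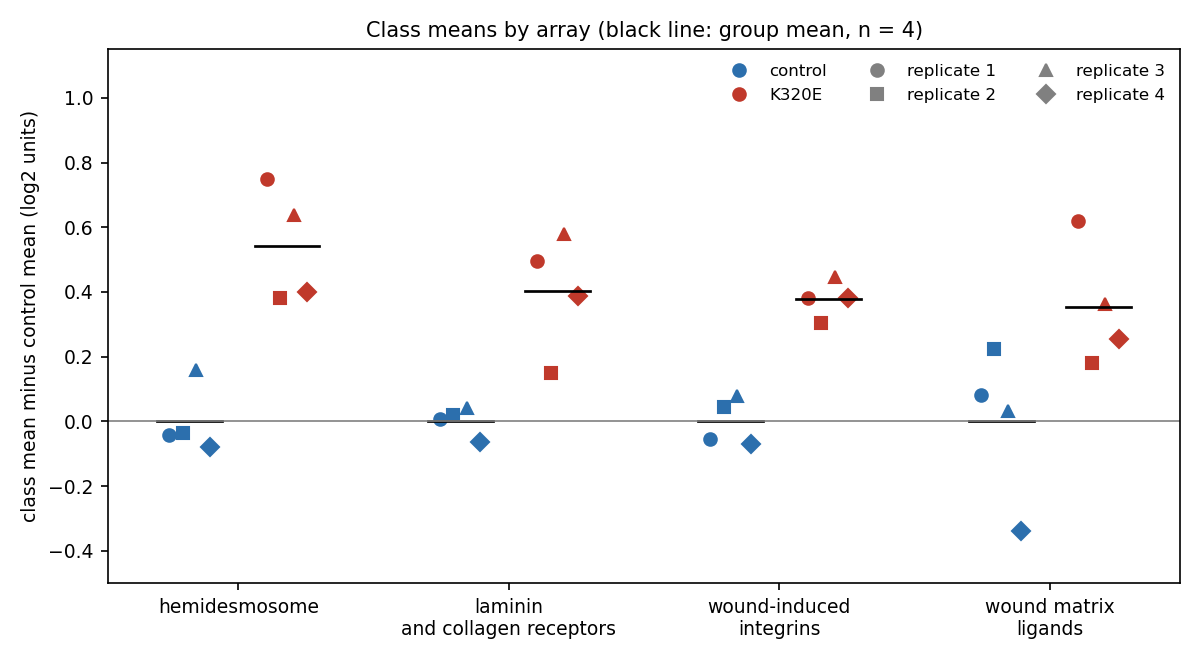
Mean log2 intensity of each class in each array, minus the mean of the controls for that class. Red is K320E and blue is control, symbols mark replicate numbers and black lines are group means (n = 4). The 3 integrin classes separate the groups, with K320E means of 0.54, 0.40 and 0.38 log2 units, and the ligand class overlaps.

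The arrays themselves differed across the members. K320E replicate 3 was above its group mean in 8 of the 10 genes and control replicate 3 likewise in 8 of 10. K320E replicate 2 was above its group mean in 1 of 10, which was Itga5, and control replicate 4 in 0 of 10. K320E replicate 1 was the highest array of all for Itgb4, Itga3, Fn1 and Tnc, and K320E replicate 3 for Itga6, Itga2, Itgb1 and Itgav.

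Markers of other cells were read from lists beside these values. Over all genes, 49.8% of changes were positive, 14.8% had an unadjusted p under 0.05, and 0.685% and 0.194% were called higher and lower. In bulk tissue, fewer cells of a type and less RNA per cell cannot be told apart. Fibroblasts are a main source of Fn1 and Tnc in skin. Of 10 fibroblast markers, 0 passed the test (0 also at an unadjusted p under 0.05) and 7 had positive changes. Their mean ran from 7.01 to 7.43 in K320E and from 6.87 to 7.36 in controls. The most abundant of them went opposite ways. Dcn was at 10.94 in K320E and 11.08 in controls, and Col1a2 at 9.26 and 8.75 (limma adjusted p = 0.712). Control replicate 4, the lowest array for Fn1 and Tnc, was also the lowest for this list. Skeletal muscle markers had positive changes in 8 of 8, 0 of them called and 1 at an unadjusted p under 0.05. Their array means were 6.85 to 8.05 in K320E and 6.45 to 7.25 in controls, highest in K320E replicates 3 and 1. Hair follicle markers had negative changes in 13 of 14, with 0 called, 9 at an unadjusted p under 0.05 and a median of -0.83, farther from 0 than that of any other cell type's list. In 4 of the 14 every K320E array lay below every control, where 3.75% of all genes did. Their array means were 7.30 to 7.72 in K320E, 7.70 and 7.85 in control replicates 2 and 3, and 8.50 and 8.92 in control replicates 1 and 4. Endothelial (0 of 8 called) and macrophage markers (0 of 8) had array means that overlapped, from 5.54 to 5.96 against 5.62 to 5.65 and from 6.62 to 6.87 against 6.60 to 6.91. Of the macrophage changes 3 of 8 were positive, with a median of -0.11. Cd68 was at 0.51 (limma adjusted p = 0.137), and C1qb, the next most abundant, at -0.13 (limma adjusted p = 0.750). Neutrophil markers (0 of 9 called, 7 positive) had array means that did not overlap, 5.57 to 5.62 in K320E and 5.28 to 5.53 in controls. This gap leaned on Cxcr2, at 1.32 (limma adjusted p = 0.147), while the other changes of the list ran from -0.02 to 0.20. Cd68 and Cxcr2 were each the 1 gene of their list with every K320E array above every control, where 5.5% of all genes did so. The part of these cells in the integrin changes was not tested.

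Beyond the members, the anchoring partners of alpha6 beta4 held no called gene (0 of 7, median change 0.21, limma). In this list 6 of 7 changes were positive and 3 passed an unadjusted p under 0.05, against 49.8% and 14.8% of all genes. The median was 0.13 without K320E replicate 1. Cd151, the tetraspanin that binds alpha3 and alpha6 integrins, had a change of 0.41 (SE 0.13, limma adjusted p = 0.180), with all K320E arrays above all controls. Col17a1, the transmembrane collagen of hemidesmosomes, had one of 0.21 (SE 0.084, adjusted p = 0.277). Other basement membrane genes had 0 of 15 called, 2 at an unadjusted p under 0.05 (against 14.8% of all genes), and a median of 0.09. That median was 0.04 without control replicates 2 and 3, 0.05 without K320E replicate 1 and 0.05 after quantile normalisation. The linker Nid1 was at 0.58 (SE 0.16, adjusted p = 0.155), or 0.37 as the mean over its 2 probe sets (adjusted p = 0.295), and the laminin chain Lamb2 at 0.29 (SE 0.095, adjusted p = 0.199).

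Most other integrin chains had small negative changes in K320E. Of 17 measured, 13 had negative changes, 0 were called, 2 had an unadjusted p under 0.05 (against 14.8% of all genes), and the median was -0.04. Itgae, the alphaE chain of intraepithelial T cells, measured 6.13, 6.27, 6.18 and 6.19 in K320E and 6.40, 6.42, 6.28 and 6.67 in controls. Its change was -0.25 (SE 0.084, limma adjusted p = 0.210). Itga4, a leukocyte chain, had a change of -0.17 (SE 0.058, limma adjusted p = 0.212). Both lay below all controls in every K320E array, where 3.75% of all genes did. Beside them, 6 of 6 Langerhans and T cell markers had negative changes, and 1, the class II gene H2-Ab1, fell by 0.98 (SE 0.13, limma adjusted p = 0.013). Over all genes 49.8% had positive changes and 0.194% were called lower. At an unadjusted p under 0.05 there were 5 of the 6, against 14.8% of all genes. In 3 of the 6 every K320E array lay below every control, where 3.75% of all genes did. The H2-Ab1 call was lost without K320E replicate 3 (adjusted p = 0.051) and without control replicates 2 and 3 together (adjusted p = 0.055). The T cell receptor chain Cd3g had a change of -1.19 (adjusted p = 0.136). The part of these cells in the Itgae and Itga4 values was not tested.

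Of 16 other wound matrix ligands, 1 rose, 0 fell and 4 had an unadjusted p under 0.05 (0.685%, 0.194% and 14.8% of all genes). Of the 4, Postn had a negative change (-0.23, limma adjusted p = 0.192) and was named after its values were seen. Positive changes numbered 6 of the 16, against 49.8% of all genes. The median change of these ligands was -0.02, and 0.00093 without K320E replicate 2. Thbs2, thrombospondin-2, measured 6.68, 6.38, 6.87 and 6.67 in K320E against 6.00, 5.79, 6.01 and 5.56 in controls. It rose by 0.81 (SE 0.13, limma adjusted p = 0.025). The call was lost without K320E replicate 1, 3 or 4, control replicate 1 or 2, or control replicates 2 and 3 together (adjusted p from 0.052 to 0.081). Thbs1 (change 0.75, adjusted p = 0.055) and the integrin-binding matricellular gene Ccn1 (1.18, adjusted p = 0.066), named after their values were seen, also lay above all controls in every K320E array.

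Integrin activators and adhesion adaptors had 0 of 21 genes called and 8 at an unadjusted p under 0.05, where 14.8% of all genes had such a p. In 7 of the 21 every K320E array exceeded every control, 33.3% against 5.5% of all genes. The share was 38.1% against 12.9% without control replicates 2 and 3. The actin crosslinker Actn1 had a change of 0.40 (SE 0.084, limma adjusted p = 0.069). The focal adhesion protein Zyx had one of 0.55 (SE 0.13, limma adjusted p = 0.103). Vcl, which links talin to actin, was at 0.37 and Tns4 at 0.54, both named after their values were seen. The list had a median of 0.17, which was 0.09 without K320E replicate 3 and 0.10 without control replicate 4.

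Pericellular proteases and their inhibitors had 1 of 16 genes called, where 0.685% of all genes were called higher. Of the 16, 12 had positive changes and 7 an unadjusted p under 0.05, against 49.8% and 14.8% of all genes. In 6 of the 16 every K320E array exceeded every control, 37.5% against 5.5% of all genes. The share was 37.5% against 12.9% without control replicates 2 and 3. Adam8, a membrane metalloprotease, measured 7.45, 7.15, 7.13 and 7.17 in K320E and 6.23, 6.17, 6.67 and 5.96 in controls, and rose by 0.97 (SE 0.14, limma adjusted p = 0.021). Its call was lost without K320E replicate 1, 3 or 4 or control replicate 1 or 2 (adjusted p from 0.052 to 0.069), and kept without control replicates 2 and 3 together (change 1.13, adjusted p = 0.016). Plaur, the urokinase receptor, which binds integrins and vitronectin, had a change of 0.78 (SE 0.15, limma adjusted p = 0.054), and its ligand Plau one of 0.38, both named after their values were seen. The median of the list was 0.16, and 0.07 without K320E replicate 1.

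**Figure D4:**
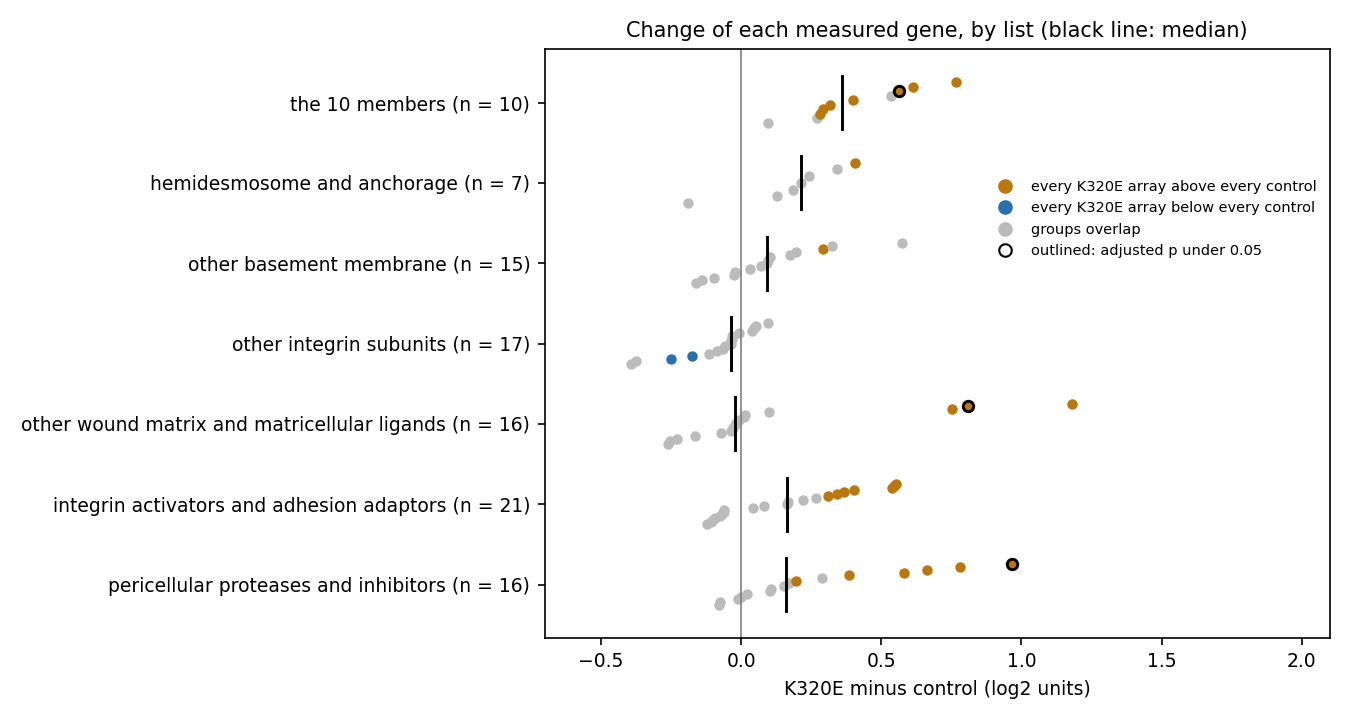
Change of each measured gene (K320E minus control, log2 units) for the 10 members and for 6 lists of related genes. Orange points had every K320E array above every control, blue points the reverse, black outlines mark an adjusted p under 0.05, and black lines are medians. The members have the highest median (0.36), which carries no test because members and lists were chosen with earlier results of these data known. The outlined points are Itga5, Thbs2 and Adam8.

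The genes closest to Itga5 over the 8 arrays were found by the root mean square difference of values centred on each gene's mean. They were Fosb, a subunit of the AP-1 transcription factor (0.076 log2 units), the phosphodiesterase Pde2a (0.080), the surface protein Ly6d (0.086), Niban2 (0.088) and the tyrosyl-tRNA synthetase Yars (0.089). Among the members, Itga6 (0.165) and Tnc (0.177) came nearest, and Fn1 (0.322) was the farthest. Closeness is a description of these arrays, in which the genotype difference is shared.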

How the data were processed

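The authors deposited log2 intensities for 33793 probe sets in 8 arrays, running from 4.31 to 13.13, with array medians of 6.06 to 6.11. How they were background-corrected and normalised is not given in the sources used here. They were analysed unchanged. Per the labels, biotin-labelled targets were made with a NuGEN Applause WT-Amp Plus ST kit. Precision is limited by the number of arrays. Gene names came from GEO's platform annotation: 23521 probe sets have 1 gene symbol, 1814 several, and 8458 are unnamed here. RefSeq's gene table (GRCm38.p6) served for names only.

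The genotypes were compared over 22180 genes by a linear model of genotype alone (lmFit, then eBayes, two-sided; limma 3.58.1, R 4.3.3), with p-values adjusted over all genes and a threshold of 0.05. The fit was checked on simulated data. The members and lists were chosen with earlier results of these data known. Of 102 related-gene entries 92 were measured, and of 116 marker entries 109. Named beside the members were the called genes of each list, or the 2 with the lowest p where none was called, the most abundant markers, and the 5 genes nearest to Itga5. Vcl, Tns4, Thbs1, Ccn1, Postn, Plaur, Plau, H2-Ab1 and Cd3g were named after their values were seen.

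The other cell markers gave these medians: endothelial 0.02, smooth muscle and pericyte 0.06, macrophage -0.11, neutrophil 0.07, platelet 0.21, mast cell 0.20, melanocyte -0.34, sebocyte -0.21, Schwann cell 0.17, suprabasal keratinocyte -0.01 and basal keratinocyte 0.09, with 0 genes called in each.

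The alternatives tried were median centring or quantile normalisation, averaging or testing all probe sets of a gene, leaving out the 33.3% of genes with the lowest mean level, a robust prior with an intensity trend, array weights, a replicate block, and arrays left out singly or as a pair.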

Additional observations from a re-analysis of the deposited data

Results flagged for a closer look

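Itga6 in control replicate 3 was at 11.40, far from the other 3 controls (11.07 to 11.10), with a gap of 0.899 of the group's range. This is above the 95% critical value of Dixon's test for a group of 4. Of the 20 groups checked (10 genes in 2 genotypes) this was the 1 above it, and chance gives about 1 in 20. Control replicate 3 is also an array whose sex-linked transcripts did not match 1 sex.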

How the results depend on the processing

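The members kept their sign under all 9 alternatives other than single arrays left out. Itgb4 (0.77) and Tnc (0.61) passed the threshold when the lowest 33.3% of genes was left out (adjusted p = 0.031 and 0.044) and with an intensity trend and robust prior (0.034 and 0.047). With the replicate block Itga5 (0.56) had an adjusted p of 0.058, and 84 genes were higher over all genes against 152. The replicate numbers are shared labels only, as the deviations of same-numbered arrays correlated at 0.051, -0.065, 0.082 and 0.14, and 2 of the 4 K320E arrays correlated best with their own number. Under that filter 66 genes were lower against 43. The other wound ligands that rose numbered 3 under the filter, 3 with the trend, 2 with array weights and 0 without control replicates 2 and 3 (1 in the main fit). The proteases that rose numbered 2, 2 and, with the block, 0 (against 1).

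With single arrays left out, changes ran from 0.61 to 0.86 for Itgb4, 0.52 to 0.61 for Itga5, 0.28 to 0.40 for Itga6 and -0.027 (without control replicate 4) to 0.17 for Fn1, which was at -0.011 without K320E replicate 1. Genes higher over all genes ran from 44 (without K320E replicate 3) to 147, and lower from 9 to 33. Wound ligands that rose ran from 0 to 2, adaptors from 0 to 1 and proteases from 0 to 3. Fewer arrays leave less power, and other causes were not tested. Low signals near the array floor limit the smallest changes that can be seen.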
